A study of Mus musculus with 18 samples.

Results

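The comparison described here set the brains of wild-type pups given lead against the brains of wild-type pups given saline. The members were chosen from the sample titles, as the lead-treated and control brains of the C57BL/6J (+/+) genotype. They are 6 of the 18 samples of the series, but these 6 are the same 2 arrays summarised by 3 algorithms, and the whole series holds 6 arrays. The lead pups received lead acetate at 50 mg/kg on postnatal days 7 and 8, with 2 injections each day separated by 4 h, and weight-matched control pups received saline on the same schedule. Whole brains were collected on postnatal day 8, when 6 h had passed since the final injection. Each array measured pooled RNA of 5 pups, described as male and female, so there was 1 pool a side, the spread between animals was not measured, and no difference could be tested. The wild-type pups came from the final brother-sister cross of a metallothionein knockout line backcrossed to C57BL/6J for at least 7 generations. The same cross gave the heterozygous (+/-) and Mt-KO (-/-) pups whose lead and saline pools are set beside the wild-type pair below. The series asks how lead affects expression in the developing brain while synapses form.

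Lead enters cells through routes that serve calcium and other divalent metals, and it binds cysteine-rich sites in proteins, including enzymes of heme synthesis. Metallothioneins are small cysteine-rich proteins that hold zinc and copper and can bind toxic metals. Transcription of Mt1 and Mt2 is raised by zinc and cadmium through the metal-responsive factor MTF-1, which binds metal response elements in their promoters. In the mouse, the days around the end of the first postnatal week are a time of synapse formation, of granule cell division and Purkinje cell growth in the cerebellum, and of the start of myelination.

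The promoters of the metal-binding genes are shown because Mt1 and Mt2, and the zinc exporter gene Slc30a1, are known targets of MTF-1. Mt3, the brain form of the family, is set beside them. Capitals mark each match to the core of the metal response element, TGCACNC or TGCGCNC, on either strand. The windows run from 250 bases before to 50 bases after the gene start in RefSeq (GRCm38.p6), all on the + strand, at chr8:94178839-94179138 for Mt1, chr8:94172368-94172667 for Mt2, chr8:94152357-94152656 for Mt3 and chr1:191906531-191906830 for Slc30a1 (ZnT1).
Mt1: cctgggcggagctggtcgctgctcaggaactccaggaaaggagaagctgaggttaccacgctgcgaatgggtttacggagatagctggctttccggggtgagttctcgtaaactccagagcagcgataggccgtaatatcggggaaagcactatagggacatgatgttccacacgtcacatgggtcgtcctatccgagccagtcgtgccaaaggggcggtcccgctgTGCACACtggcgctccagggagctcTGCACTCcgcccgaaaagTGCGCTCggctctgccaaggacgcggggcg
Mt2: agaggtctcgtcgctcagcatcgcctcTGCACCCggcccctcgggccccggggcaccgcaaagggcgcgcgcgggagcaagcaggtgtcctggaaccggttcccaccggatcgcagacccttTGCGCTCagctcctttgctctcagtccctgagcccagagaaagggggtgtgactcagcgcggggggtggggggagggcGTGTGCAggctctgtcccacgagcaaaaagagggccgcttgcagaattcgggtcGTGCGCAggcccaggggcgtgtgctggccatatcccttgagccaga
Mt3: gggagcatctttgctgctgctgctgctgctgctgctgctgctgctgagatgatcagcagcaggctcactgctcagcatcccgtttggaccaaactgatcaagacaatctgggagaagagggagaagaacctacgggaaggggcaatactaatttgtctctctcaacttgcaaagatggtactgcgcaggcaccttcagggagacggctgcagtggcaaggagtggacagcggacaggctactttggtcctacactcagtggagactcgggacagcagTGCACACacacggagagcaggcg
Slc30a1: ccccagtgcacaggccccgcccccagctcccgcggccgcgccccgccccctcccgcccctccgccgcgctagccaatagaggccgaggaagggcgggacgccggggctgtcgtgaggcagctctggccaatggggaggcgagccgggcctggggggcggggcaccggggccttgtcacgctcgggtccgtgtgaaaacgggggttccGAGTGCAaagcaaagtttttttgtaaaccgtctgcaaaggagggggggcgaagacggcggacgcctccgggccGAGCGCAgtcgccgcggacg
The window held 3 matches in Mt1, 4 in Mt2, 1 in Mt3 and 2 in Slc30a1. Of 32851 promoter windows of the same length, 12.6% held TGCACNC, 15.4% held TGCGCNC and 25.7% held either. Matches outside the windows were not counted, and the windows depend on the gene start given in RefSeq. A match is only a match of letters.

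Mt1 and Mt2 were slightly higher in the lead pool, and Mt3 was lower by a similar amount. Levels are deposited RMA values on the log2 scale. Differences are lead minus saline, also log2, counted from the median gene of the pair, because the median gene itself differed by -0.18 between the 2 wild-type arrays. Mt1 measured 13.17 in the saline pool and 13.30 in the lead pool, a difference of 0.32 from the median gene, and its second probe set differed by 0.49. Mt2 measured 12.59 and 12.73, a difference of 0.33. Both genes, the widely expressed members of the family, lay above the 4 heterozygous and Mt-KO arrays in both wild-type pools, as deposited and relative to the median gene. Mt3, the form enriched in brain, measured 13.64 with saline and 13.14 with lead, a difference of -0.32. Mt4, a form of stratified epithelia, lay at 6.29 and 6.35, too dim to be counted among the genes tested. None of the 3 metallothioneins tested differed by as much as 1.5-fold. Slc30a1 measured 11.26 and 10.79 and differed by -0.28. Mtf1, which encodes MTF-1 itself, differed by 0.26.

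The wild-type arrays differed from each other before any gene was considered. Values were spread more widely on the saline array than on the lead array (SD over all probe sets 1.93 against 1.84). On the heterozygous and Mt-KO lead arrays the SD was 1.91 and 1.90, nearly as wide, and on both other saline arrays it was 1.84 and 1.83. The gap between the 3' and the 5' probe sets of Gapdh, a measure of RNA quality, was 1.19 with saline, against 0.73 with lead and 0.54 to 0.82 on the other arrays. Dim genes lay above and bright genes below the median gene: the median difference was 0.14 in the dimmest 10% of genes and -0.11 in the brightest 10%. In the heterozygous and Mt-KO pairs this trend ran the other way, from -0.09 at the dim end of both to 0.18 and 0.09 at the bright end. All 14 genes of a pan-neuronal list were bright enough to be tested, and they had a median difference of -0.17 (0.01 after quantile normalization), so the label of brain tissue held. The pools also differed in sex-linked transcripts. Xist, the RNA of the inactive X chromosome, was higher in the lead pool (0.48 in the brightest of 3 probe sets, 0.97 and 1.44 in the others). The Y-linked gene Eif2s3y was lower (-0.82), and the probe sets of Kdm5d and Uty, also Y-linked and too dim to be tested by their brightest, ranged from -0.75 to 0.22 and from -1.07 to 0.39. In the Mt-KO pair, set beside the wild-type pair below, sex-linked transcripts differed more and the other way. Eif2s3y differed there by 4.57, and Xist by -2.62 in its brightest probe set and by -5.58 and -1.55 in the others. The part that array spread, RNA quality or the sex-linked differences have in the results below was not tested.

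**Figure D1:**
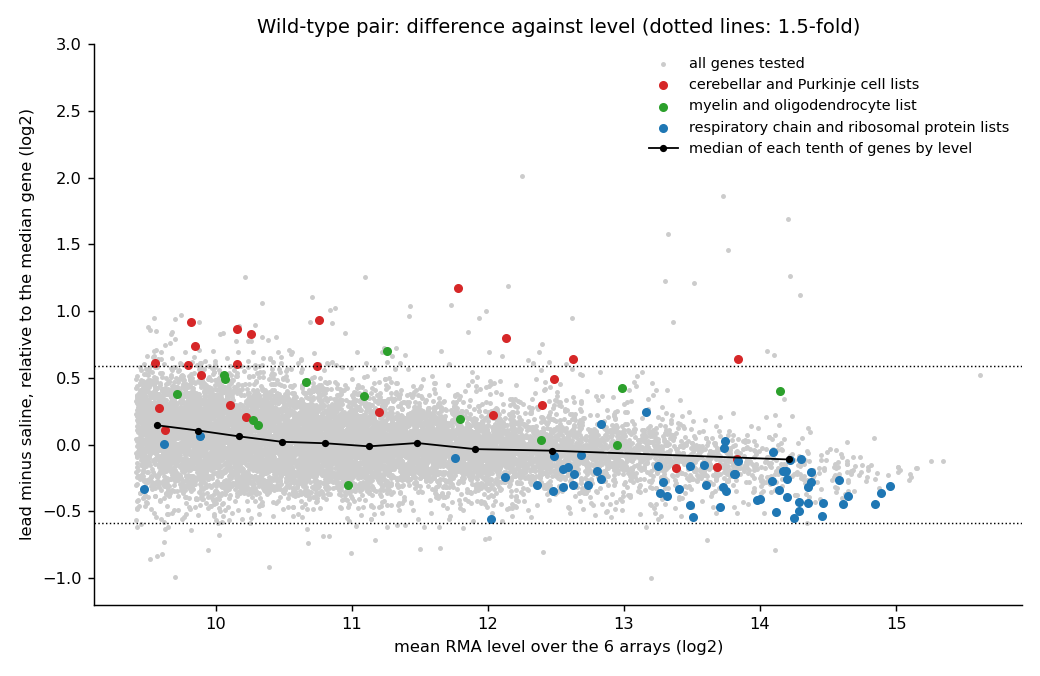
Lead minus saline in the wild-type pair (log2, relative to the median gene) against the mean RMA level over the 6 arrays (log2) for each of 10916 genes, with the median of each of 10 equal bins of genes by level as a black line and 1.5-fold as dotted lines. The line runs from 0.14 to -0.11, cerebellar and Purkinje cell genes lie mostly above 0 at every level, and respiratory chain and ribosomal protein genes lie mostly below 0 at the bright end.

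Of 10916 genes tested, 141 were over 1.5-fold higher in the lead pool (1.29%) and 38 were over 1.5-fold lower (0.348%). Over 2-fold, 19 were higher (0.174%) and 1 was lower (0.00916%). These limits are sizes, not tests. Most genes lay close together, with 75.6% within 0.25 of the median gene, against 89.9% for heterozygous and 90.9% for Mt-KO pups. The balance of higher and lower genes depended on the scale. It was 293 higher to 688 lower with GC-RMA, 53 to 271 with the RMA values as deposited and not centred, 95 to 68 after quantile normalization of the 6 arrays and 106 to 68 after the trend with level was removed. Of the 141 genes, 75 were past 1.5-fold in the same direction with RMA, GC-RMA and PLIER, as were 21 of the 38.

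Which of the 2 arrays lay apart could be read from the other 4, since each gene has a level relative to the median gene on every array. Whether the 6 arrays were normalized together is not given in the sources used here, and every such reading rests on their levels being comparable. Among the 141 higher genes, the saline pool alone lay outside the range of the 4 other arrays in 59, the lead pool alone in 9, both in 69 and neither in 4. Among the 38 lower genes these numbers were 6, 3, 27 and 2. Over all genes tested the saline pool lay outside that range in 54.5% and the lead pool in 50.7%. So a gene listed as higher with lead was more often low in the saline pool alone than high in the lead pool alone.

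The largest difference was that of Laptm5, a lysosomal membrane protein of blood and microglial cells. It measured 10.62 with saline and 12.45 with lead, a difference of 2.01, or 4.03-fold. The heterozygous and Mt-KO arrays held it between 11.48 and 13.13, so the saline value was the low one. The other 4 Laptm5 probe sets differed by at most 0.28. 1700003E16Rik, an uncharacterised gene with 1 probe set, measured 12.33 and 14.01, a difference of 1.86, with the other arrays at 13.35 to 14.30. Cryl1, a crystallin-related sugar dehydrogenase, measured 12.93 and 14.44, a difference of 1.69, with the others at 13.95 to 14.71. In both genes the lead pool lay among the other arrays and the saline pool below them.

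Pcsk1n, which encodes proSAAS, an inhibitor of prohormone convertase 1 in neuroendocrine cells, set the saline pool apart from all 5 other arrays. It measured 12.14 with saline and 13.54 with lead, and 13.47 to 13.66 on the other 4 arrays, a difference of 1.58 in the wild-type pair against 0.05 in each of the other pairs. Lrrc4b, a synaptic adhesion protein, had a like pattern, with 10.25 and 11.32 against 11.04 to 11.51 and a difference of 1.26. Each of these genes has 1 probe set, so no second measurement exists on the array. Pik3cd, a catalytic subunit of phosphoinositide 3-kinase, differed by 1.46. The cell cycle factor E2f5 differed by 1.26 and Ptbp1, a splicing repressor that falls as neurons mature, by 1.22. Iapp, the islet hormone amylin, differed by 1.25, Depp1 by 1.21, Nrip2 by 1.19, the replication endonuclease Fen1 by 1.12, Tspyl1 by 1.11 and Wdr91 by 1.06. In each of these genes the saline pool lay below the other 4 arrays once every array was set to its median gene. The lead pool lay within or above them, except for Tspyl1, where it too lay below. The second brightest probe sets of Ptbp1 and Iapp differed by 0.46 each, that of Nrip2 by 0.32 and that of Fen1 by 0.26. Those of Wdr91, Tspyl1 and Depp1 differed by 0.20, 0.16 and 0.15, so none of these genes was past 1.5-fold in both.

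**Figure D2:**
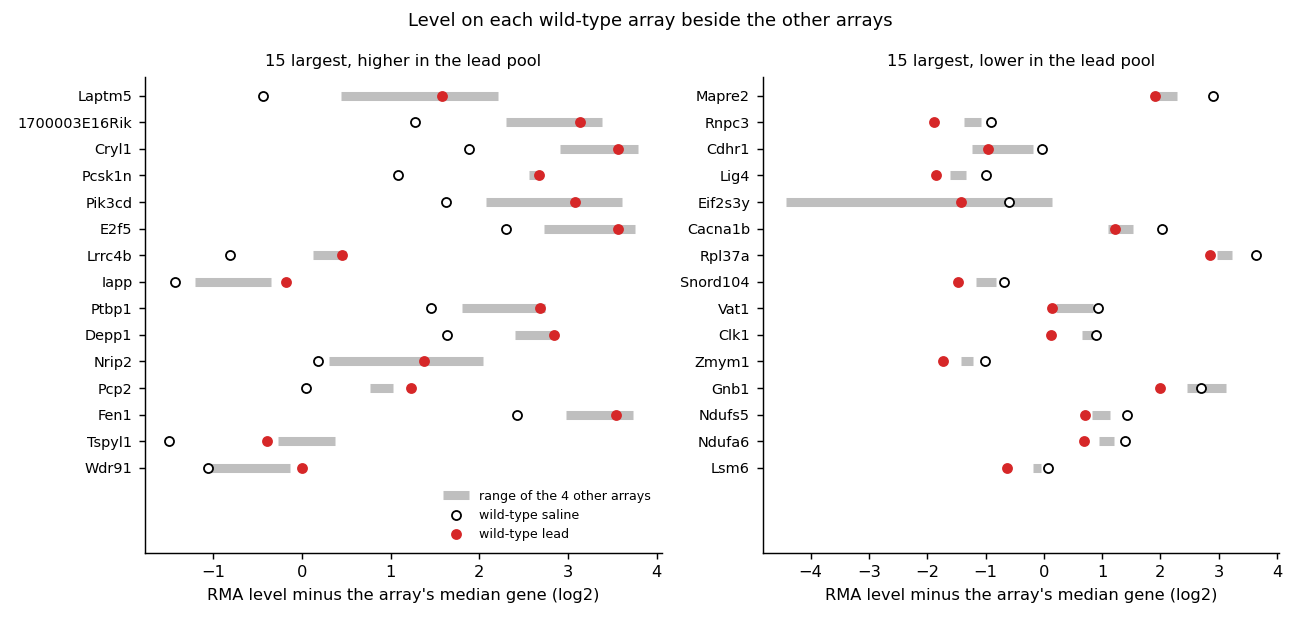
Level on the wild-type saline array (open circles) and the wild-type lead array (red), as RMA minus the array's median gene (log2), with a grey bar for the range of the 4 heterozygous and Mt-KO arrays, for the 15 largest genes in each direction that were past 1.5-fold with RMA, GC-RMA and PLIER. On the left the open circles stand off to the left of the bars, as for Laptm5 and Pcsk1n, and on the right circles lie on both sides of the bars, as for Rnpc3 and Lig4.

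A gene with several probe sets was measured more than once on the same 2 arrays. Of the 141 higher genes 91 had several, and the second brightest was above the median gene in 73 of them (80.2%) and over 1.5-fold higher in 13 (14.3%). Over all 7008 genes tested that have several, the second brightest was above the median gene in 67.2% and over 1.5-fold higher in 3.78%. Its median difference was 0.24 in the 91 genes and 0.12 in the 7008. For many of the largest genes the second probe set differed little: by 0.02 for Pik3cd, 0.10 for E2f5 and 0.20 for Cryl1. In these 3 genes it was also far dimmer than the brightest. Mean levels over the 6 arrays were 9.95 against 13.77, 11.00 against 14.22 and 10.46 against 14.21. The 13 genes past 1.5-fold in both were Insm1, Pcp2, Lhx1, Zic1, Neurod1, Barhl1, Hmgb2, Nlgn3, Fam107a, Tcf25, Csrp1, Fads2 and D17H6S56E-5. The first 6 of these belong to the cerebellar or Purkinje cell lists, which were chosen with earlier results of these data known. Of the 38 lower genes 20 had several probe sets, the second was over 1.5-fold lower in 1 (5%), Malat1, against 0.542% of the 7008, and its median difference was 0.01, against 0.12.

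**Figure D3:**
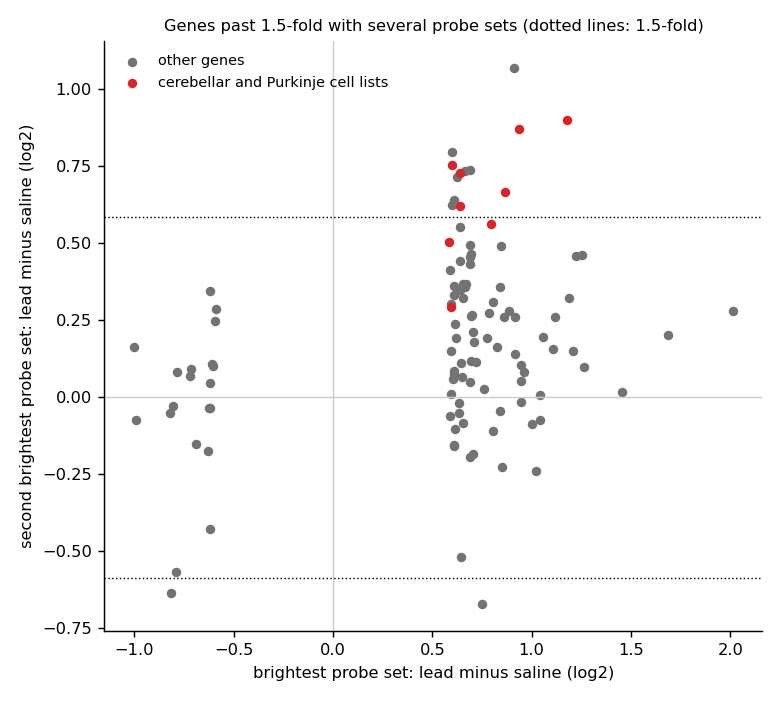
Lead minus saline (log2, relative to the median gene) in the brightest probe set of each gene past 1.5-fold against that in its second brightest, in the wild-type pair, with cerebellar and Purkinje cell genes in red and 1.5-fold as dotted lines. The red points lie in the upper part, with 6 above the upper line, whereas Laptm5 at 2.01 on the horizontal axis lies at 0.28 on the vertical.

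Genes of the lists named for the cerebellum and its Purkinje cells were higher in the lead pool as a group. Of 25 genes tested in a Purkinje cell list and a list of granule cell and patterning factors, 22 lay above the median gene and 13 were over 1.5-fold higher (52%, against 1.29% of all genes tested). None was over 1.5-fold lower. These lists and their members were chosen with earlier results of these data known, so the shares describe the lists and are no independent evidence. The median was 0.30 over the 12 Purkinje cell genes and 0.60 over the 13 granule cell and patterning genes, where the median over all genes is 0 by construction. After quantile normalization these medians were 0.28 and 0.52, and over the dimmer probe sets of 9 granule cell and patterning genes, centred on the same median gene, the median was 0.48, where the dimmer probe sets of all 7008 genes that have them lay at 0.15. Relative to the median gene, the saline pool lay below the 4 other arrays in 20 of the 25 (80%, against 23.2% of all genes), and the lead pool lay above them in 12 (48%, against 30.5%) and among them in 13. In whole tissue, a smaller share of a cell type and less of the transcript per cell cannot be told apart.

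Pcp2, a protein of Purkinje and retinal bipolar cells, measured 11.10 with saline and 12.10 with lead, and 11.69 to 12.08 on the other arrays. Its difference was 1.18 and that of its second probe set 0.90. The saline pool was the lowest and the lead pool the highest of the 6 arrays. Lhx1, a transcription factor of Purkinje cell development, measured 9.72 and 10.41 and differed by 0.87. Slc1a6, the Purkinje cell glutamate transporter, measured 9.81 and 10.46 and differed by 0.83. Car8, a carbonic anhydrase relative that binds the inositol trisphosphate receptor, measured 11.69 and 12.30 and differed by 0.80. These were the 4 Purkinje cell genes past 1.5-fold, and relative to the median gene the lead pool lay above the other 4 arrays in each. Pvalb (0.52), Calb1 (0.30) and Homer3 (0.30) differed by less, and Gad1, made by all GABA neurons, and Pcp4 were at -0.18 and -0.10.

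Granule cell and patterning genes included 9 past 1.5-fold. Insm1, a zinc-finger factor of dividing neuronal progenitors, measured 10.24 with saline and 10.99 with lead, 10.50 to 11.22 elsewhere, and differed by 0.94 (second probe set 0.87). En2, the engrailed factor of midbrain and cerebellum, measured 9.28 and 10.02, 9.63 to 10.14 elsewhere, and differed by 0.92. Nhlh2 and Nhlh1, helix-loop-helix factors of newborn neurons, differed by 0.74 and 0.61. In these genes the saline pool was the lowest of the 6 arrays and the lead pool lay within or at the edge of the others. Neurod1, a granule cell differentiation factor, measured 12.29 and 12.75 and differed by 0.64. It is also in the hippocampus and dentate gyrus list, as the 1 gene past 1.5-fold there. That list had a median of -0.02 over 9 genes. Zic1, which keeps granule cell precursors dividing, measured 13.65 and 14.10 and differed by 0.64. Pax6 differed by 0.60, Barhl1 by 0.60 and Zic5 by 0.58. All 5 probe sets of Pax6 were higher in the lead pool (67.2% of second brightest probe sets over all genes). Reln, made by granule and Cajal-Retzius cells, was the only one of the 13 below the median gene, at -0.17.

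**Figure D4:**
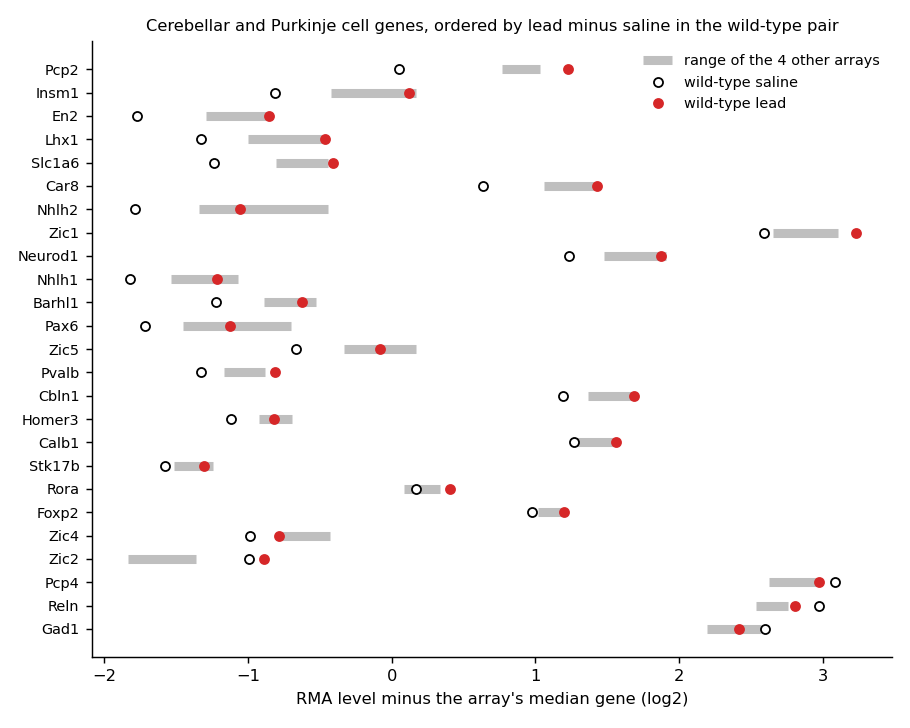
Level of each of 25 cerebellar and Purkinje cell genes on the wild-type saline array (open circles) and the wild-type lead array (red), as RMA minus the array's median gene (log2), with the range of the 4 other arrays in grey, ordered by the wild-type difference. The open circle lies left of the grey bar in 20 genes, and the red circle lies right of it in 12.

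Glial genes also lay above the median gene. In the myelin and oligodendrocyte list 12 of 14 genes were higher, with a median of 0.37. Mag, an adhesion protein of the inner myelin surface, measured 10.90 and 11.42 and differed by 0.70. It was the 1 member past 1.5-fold (1.29% of all genes tested were that much higher). Cldn11, the tight junction protein of myelin, differed by 0.52, Mobp by 0.49, Ugt8a, which makes galactosylceramide, by 0.47 and Mbp, myelin basic protein, by 0.40. All 8 probe sets of Mbp and all 5 of Mobp were above the median gene. Over all 7008 genes with several, 67.2% of the second brightest probe sets were so too. Those of Mobp reached down to a mean level of 7.72, below the 9.42 of the dimmest gene tested. Olig2, a lineage factor that precursors already express, was at -0.30, and 10 precursor genes had a median of 0.01. In the myelin list the lead pool lay above the other arrays in 4 of 14 genes (30.5% over all genes) and the saline pool below them in 3 (23.2% over all genes), shares near those of all genes.

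Astrocyte genes had a median of 0.16, with 17 of 20 above the median gene. Over the dimmer probe sets of 15 of them, centred on the same median gene, the median was 0.098, where the dimmer probe sets of all genes that have them lay at 0.15. The gap junction gene Gjb6 (9.91 and 10.35) and angiotensinogen, Agt (10.87 and 11.30), each differed by 0.62, and Gfap, the intermediate filament of astrocytes, by 0.41. Microglial and complement genes had a median of 0.28, with 10 of 11 above. Apart from Laptm5 none was past 1.5-fold: C1qa, a chain of complement C1q, differed by 0.55, C1qb by 0.39 and Csf1r, the receptor that keeps microglia alive, by 0.30. Cell cycle and replication genes had a median of 0.20, with 16 of 19 above. Hmgb2, a chromatin protein of dividing cells, measured 10.50 and 11.23 and differed by 0.91 (second probe set 1.07), cyclin A2 (Ccna2) by 0.64 and Mki67 by 0.44. The saline pool lay below the other arrays in 16 of these 19 genes (23.2% over all genes) and the lead pool above them in 4 (30.5% over all genes). After quantile normalization the median of this list was 0.11.

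With the centred RMA values fewer genes were lower than higher, a balance that GC-RMA and uncentred RMA reversed. The dimmer probe sets (76 higher, 102 lower) and, by little, the mean over probe sets (48 and 50) reversed it too. Mapre2, a microtubule end-binding protein, measured 13.95 with saline and 12.77 with lead and differed by -1.0, but its second probe set by 0.16. Rnpc3, a protein of the minor spliceosome, measured 10.15 and 8.98, with 9.55 to 9.89 on the other arrays, and differed by -0.99. Lig4, the ligase of DNA end joining, measured 10.07 and 9.02, with 9.32 to 9.72 elsewhere, and differed by -0.86. In Rnpc3 and Lig4 the saline pool was the highest and the lead pool the lowest of the 6 arrays. Cdhr1, a cadherin of photoreceptors and olfactory bulb mitral cells, differed by -0.92. Cacna1b, the pore of N-type calcium channels, which trigger transmitter release and are blocked by lead in cell preparations, measured 13.08 and 12.10 and differed by -0.80. Its other 3 probe sets differed by -0.19 to 0.20. Clk1, a kinase of splicing factors, differed by -0.77, Gnb1, a G protein beta subunit, by -0.71, Snord104 by -0.79, Vat1 by -0.78, Zmym1 by -0.73 and Lsm6 by -0.69. The other probe sets of Gnb1 were at 0.09 and 0.22, those of Vat1 at 0.08 and 0.19, and those of Lsm6 ranged from -0.15 to 0.50. Malat1, a nuclear noncoding RNA, measured 12.04 and 11.04 and differed by -0.81. Its 7 probe sets ranged from -0.82 to 0.20.

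Genes of the respiratory chain and of the ribosome lay below the median gene nearly throughout, by small amounts. Of 39 nuclear-encoded respiratory chain genes 36 were below it, with a median of -0.28 and a lowest value of -0.56. None was past 1.5-fold (0.348% of all genes tested were that much lower). Ndufb3, a complex I subunit, measured 12.44 and 11.70, Cox6c, of cytochrome oxidase, 14.74 and 14.00, and they differed by -0.56 and -0.55. Ndufs5 (-0.71) and Ndufa6 (-0.70), complex I subunits outside that list, were past 1.5-fold. Of 26 ribosomal protein genes 24 were below, with a median of -0.31, and Rplp2 was the lowest at -0.51. Rpl37a, another ribosomal protein outside the list, measured 14.69 and 13.72 and differed by -0.79 (second probe set -0.57). These are bright genes, where the whole pair leaned to lower values, and after quantile normalization the medians were -0.17 and -0.11. Relative to the median gene the saline pool lay above the other 4 arrays in 30 of the 39 and in 23 of the 26 (31.2% over all genes). The lead pool lay below them in 11 of the 39 and in 0 of the 26 (20.2% over all genes).

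Genes of metal and stress responses differed little. Of 20 genes of zinc, copper and iron handling none was past 1.5-fold, and the median was -0.15. The copper chaperone Atox1 (13.25 and 12.59) differed by -0.48 and superoxide dismutase Sod1 by -0.42, while the zinc importer Slc39a14 was at 0.29. In heme synthesis, Alad, the enzyme lead inhibits, measured 9.66 and 9.20 and differed by -0.28. Cpox differed by 0.53, but its second probe set by -0.36, and the 11 genes had a median of -0.04 (-0.26 with GC-RMA). Medians were 0.03 over 10 antioxidant targets of NRF2 (-0.18 with GC-RMA), -0.13 over 17 cytosolic heat shock genes, 0.01 over 15 genes of the ATF4 response (-0.20 with GC-RMA), -0.09 over 18 immediate early genes and 0.01 over 11 glucocorticoid-responsive genes. No gene of these 5 lists was past 1.5-fold in either direction. Over all genes tested 1.29% were that much higher and 0.348% that much lower. At those shares lists of this size, the 20 metal-handling genes included, would hold few such genes or none. Srxn1, which repairs peroxiredoxins, was at 0.46, thioredoxin (Txn1) at -0.48, Hspa4 at 0.41 and Fos at 0.34. Among 18 chaperones of the endoplasmic reticulum 1 was past 1.5-fold (1.29% of all genes tested were that much higher). It was Pdia3, a disulfide isomerase, which measured 11.26 and 11.68 and differed by 0.60 (second probe set 0.06).

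Synaptic genes were close to the median gene as groups. Medians were -0.08 over 3 NMDA receptor subunits, 0.04 over 9 AMPA and kainate receptor subunits, -0.09 over 9 GABA-A receptor subunits, -0.05 over 21 synaptic vesicle and SNARE genes and -0.10 over 17 neurexins, neuroligins and scaffolds. Grin2b, the NMDA receptor subunit that prevails in the young forebrain, was at -0.08, and Bdnf was at -0.13. Nlgn3, a postsynaptic partner of neurexins, was the 1 gene of these lists past 1.5-fold. That is near the share over all genes tested (1.29% higher and 0.348% lower). It measured 10.45 and 10.87 and differed by 0.60, and its second probe set by 0.80. Dlg1, a scaffold of the same membrane, differed by 0.45 (second probe set 0.90), and Syn1, a vesicle phosphoprotein, by 0.44. Cacnb1, a calcium channel beta subunit, measured 10.72 and 11.49, with 11.48 to 11.69 on the other arrays, and differed by 0.96 (second probe set 0.08). The other 11 calcium channel genes lay between -0.25 and 0.05, apart from Cacna1b given above.

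Markers of other regions lay on both sides of the median gene. Tcf7l2, a thalamic factor, differed by -0.72, but its second probe set by 0.07. Lhx9 and Shox2, also thalamic, differed by -0.41 each, while the thalamus list as a whole had a median of -0.09. Gpr6, a receptor of striatal neurons, differed by -0.84 and Ebf1, a factor of developing striatum, by 0.84. Medians were -0.08 over 16 cortical genes, 0.02 over 16 striatal genes and -0.16 over 10 olfactory bulb genes. The 6 Hox genes of hindbrain and spinal cord tested were all above with RMA (Hoxa3 was at -0.06 with PLIER), with a median of 0.27, or 0.17 after quantile normalization. They are dim genes, where the whole pair leaned to higher values. Hoxc5 was past 1.5-fold at 0.65, but at 0.29 with GC-RMA. Among 3 pituitary genes tested Gh was past 1.5-fold at 0.69, but at 0.25 with GC-RMA and 0.51 with PLIER. Its other probe sets ranged from 0.26 to 0.47. Choroid plexus, endothelial and meningeal lists had medians of -0.11, -0.13 and 0.01, and 5 red blood cell genes 0.28. Whether a different share of these tissues in the 2 pools has a part in the differences was not tested.

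**Figure D5:**
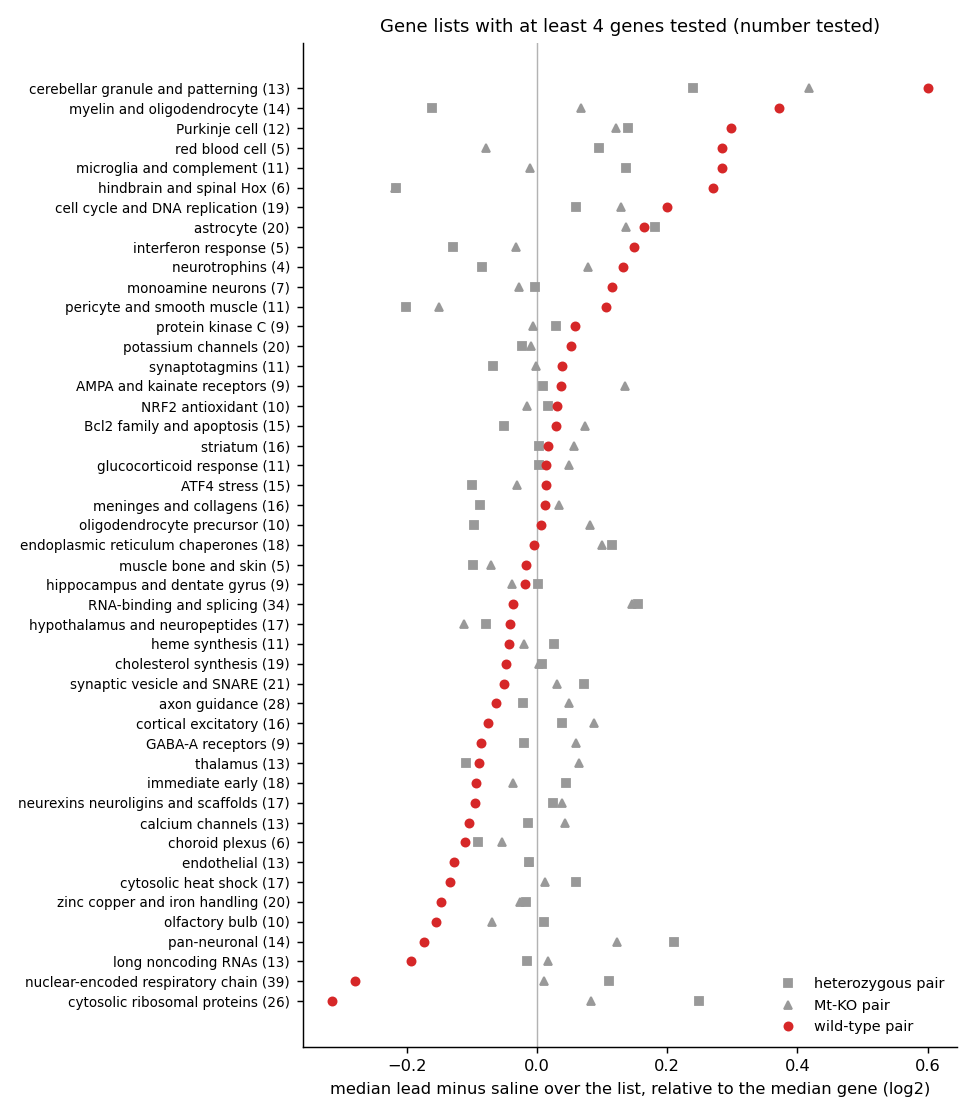
Median lead minus saline (log2, relative to the median gene of the pair) over each gene list with at least 4 genes tested, in the wild-type pair (red circles), the heterozygous pair (grey squares) and the Mt-KO pair (grey triangles), with the number of genes tested in parentheses. The wild-type medians run from -0.31 for ribosomal proteins to 0.60 for cerebellar granule and patterning genes, among the lists shown a wider span than in the other pairs. The smaller lists left out include pituitary (3 genes, heterozygous median 1.22) and sex-linked (2 genes, Mt-KO median 0.97), which lie beyond that span.

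Set beside it, the same treatment in the other genotypes gave fewer large differences. In the heterozygous pair 7 genes were over 1.5-fold higher (0.0641%) and 41 lower (0.376%), and in the Mt-KO pair 9 higher (0.0824%) and 25 lower (0.229%). The 3 pairs share no array. Of the 141 genes higher in wild-type brain, 1 was also past 1.5-fold higher in the heterozygous pair (Gh) and 1 in the Mt-KO pair (Nhlh2). Of the 38 lower, Gnb1 and Vat1 were also lower in the heterozygous pair and Cdhr1 in the Mt-KO pair. The other probe sets of Gnb1 and Vat1 lay above the median gene in the wild-type pair. The cerebellar granule and patterning list had medians of 0.24 and 0.42 in the heterozygous and Mt-KO pairs and the Purkinje cell list 0.14 and 0.12, and 16 of the 25 genes were above the median gene in all 3 pairs. Insm1 differed by 0.94 in wild-type, 0.56 in heterozygous and 0.49 in Mt-KO brain, and Pcp2 by 1.18, 0.05 and 0.05. The myelin list was at 0.37, -0.16 and 0.07, the Hox list at 0.27, -0.22 and -0.22, and the ribosomal list at -0.31, 0.25 and 0.08. No difference between pairs could be tested with 1 pool in each cell of the design.

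Many of the largest wild-type differences ran the other way in heterozygous brain. Of the 141 genes, 17 were over 1.5-fold lower with lead in the heterozygous pair, which is 12.1% of the 141 and 41.5% of the 41. They include Laptm5, 1700003E16Rik, Cryl1, Pik3cd, E2f5, Ptbp1, Nrip2, Fen1 and Wdr91, with heterozygous differences of -1.64 to -0.62. All 17 were below the median gene in the Mt-KO pair as well, from -0.64 to -0.05. The wild-type saline pool lay below the other arrays in 15 of the 17 (23.2% over all genes). The lead pool lay among them in 16 (5384 of the 10916 genes tested). The 17 were picked by large differences in both pairs, and a large heterozygous difference widens the range of the other arrays. These counts are therefore no independent evidence. Of the 16 with a second probe set, none was past 1.5-fold higher in it (-0.18 to 0.50). Across all genes tested, the wild-type differences ran against those of the heterozygous and Mt-KO pairs (Pearson r = -0.31 for both, over 10916 genes, which are not independent). The heterozygous and Mt-KO pairs ran together (r = 0.49). After quantile normalization these values were -0.23, -0.25 and 0.42. The wider spread of values belonged to the saline array in the wild-type pair and to the lead array in the other pairs.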

How the data were processed

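RNA of pooled brains was measured on Affymetrix mouse expression arrays with 45101 probe sets. The authors deposited RMA and GC-RMA values on the log2 scale and PLIER values as linear intensity for each array; per the submitters' processing notes they used Partek with RMA, GCRMA and PLIER. The sources used here give no versions. The labelling kit in the labels is one for whole-transcript arrays, whereas the probe sets are those of a 3' array. The deposited table was used as it stands. RMA was the main setting, and GC-RMA and log2(PLIER + 16) are the same arrays and served as checks, not replicates. The platform annotation gave 1 symbol for 34958 probe sets, and those with several (932) or none (9211) were left out. The brightest probe set over the 6 arrays stood for each of 18194 genes, and the 10916 genes in the upper 60% by mean level entered the comparison (called tested, although with 1 pool a side there is no statistical test and no error). Lead minus saline was taken per gene and centred on the median gene. Fold limits of 1.5 and 2 are sizes. Precision is limited by the number of arrays.

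The 51 gene lists and the members were chosen with earlier results of these data known. Named genes are the 15 largest in each direction past 1.5-fold in all 3 summaries, up to 4 per list by size, and all metallothioneins and sex-linked genes. Others are the genes past 1.5-fold in 2 probe sets or in both pairs and a few list members given for their role, chosen after their values were seen. Alternatives were GC-RMA, PLIER with offsets of 16 and 1, quantile normalization, removal of the trend with level (lowess, fraction 0.3), no centring, no filter on dim genes, only the brightest 40%, averaging all probe sets of a gene, and using its dimmer probe sets only. Computation used Python 3.11.15, pandas 2.3.3, numpy 2.4.6 and statsmodels 0.14.6, checked on simulated data with known differences.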

Additional observations from a re-analysis of the deposited data

Results flagged for a closer look

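Some genes lay past 1.5-fold in opposite directions in 2 genotypes, each from 1 pool a side, and the difference was not tested. In the wild-type pair 17 genes were higher that were lower in the heterozygous pair (Laptm5 and Cryl1 among them), 2 were higher that were lower in the Mt-KO pair (Nrip2 and Samhd1), and 2 were lower that were higher in the Mt-KO pair (Eif2s3y and Malat1).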

How the results depend on the processing

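Counts past 1.5-fold moved with nearly every choice, while most list medians did not move by over 0.2. That limit is wide for these lists. Of the 51 medians 40 lay within 0.2 of 0, so a list could change sign without being counted as moved. Leaving out the centring shifts every median by -0.18, which is under the limit by construction. In the order higher by 1.5-fold, lower by 1.5-fold, higher by 2-fold and lower by 2-fold, the counts were 141, 38, 19 and 1 as reported. They were 293, 688, 85 and 169 with GC-RMA, 330, 60, 83 and 5 with log2(PLIER + 16), 339, 61, 87 and 6 with log2(PLIER + 1), and 53, 271, 11 and 6 without centring. With the dimmer probe sets they were 76, 102, 10 and 3. Quantile normalization and removal of the trend with level each gave 68 lower by 1.5-fold. Without the filter on dim genes 151 were lower by 1.5-fold and 4 by 2-fold, and with the upper 40% of genes 81 were higher and 19 lower by 1.5-fold and 0 lower by 2-fold. The mean over probe sets gave 48 higher and 50 lower by 1.5-fold, 3 higher by 2-fold and 0 lower by 2-fold. The saline array alone lay outside the others in 59 higher and 6 lower genes as reported. These were 125 and 167 with GC-RMA, 148 and 13 with PLIER (148 and 12 with the smaller offset), 27 and 72 without centring and 38 and 36 with the dimmer probe sets. The lower genes were 26 without the filter and 3 in the upper 40%, and the higher genes 24 with the mean over probe sets. Genes shared with the heterozygous pair (1 higher and 2 lower) and with the Mt-KO pair (1 and 1) were 17, 22, 23 and 12 with GC-RMA and 0, 0, 2 and 0 with the dimmer probe sets. With PLIER the lower ones were 5 and 2 at either offset, and without centring 1 and 2. After quantile normalization they were 0 higher and 1 lower (heterozygous) and 2 lower (Mt-KO). Without the filter the higher ones were 4 and 2. In the upper 40% they were 0 higher (heterozygous) and 0 and 0 (Mt-KO), and with the mean over probe sets 0 and 0 (heterozygous).

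The median of a list moved by over 0.2 in these cases. With GC-RMA it became 0.80 for cerebellar granule and patterning genes, 0.042 for pan-neuronal, -0.26 for heme synthesis, -0.18 for NRF2, -0.20 for ATF4, 0.11 for choroid plexus, 0.18 for muscle, bone and skin and -0.072 for interferon response genes. Quantile normalization took ribosomal proteins to -0.11. Without the filter the median was 0.10 for choroid plexus, 0.31 for muscle, bone and skin and 0.20 for sex-linked genes. In the upper 40% it was -0.30 for neuropeptides and 0.51 for sex-linked genes, and with the mean over probe sets 0.047 for red blood cell and 0.19 for sex-linked genes. With the dimmer probe sets it was 0.33 for cerebellar granule and patterning genes, -0.057 for astrocyte, -0.23 for ATF4, 0.17 for NMDA receptor, -0.18 for AMPA and kainate receptor, -0.24 for synaptotagmin, 0.15 for synaptic vesicle, -0.35 for neurotrophin, -0.19 for pericyte and 0.42 for sex-linked genes. The dimmer probe sets were centred on their own median, which lowers every value by 0.15 against the centring used elsewhere. On that centring 7 named genes had the opposite sign, at -0.082 for Laptm5, -0.18 for E2f5, -0.0049 for Depp1, -0.0042 for Wdr91, -0.10 for Pdia3, 0.0030 for Gnb1 and 0.26 for Lsm6. On the centring used elsewhere Laptm5 (0.073), Depp1 (0.15), Wdr91 (0.15) and Pdia3 (0.058) kept their sign, and E2f5 (-0.026), Gnb1 (0.16) and Lsm6 (0.41) did not. For the other moves the cause was not tested. No paired analysis was possible because each group holds 1 array, and no array could be left out.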
